A study of Homo sapiens with 4 samples.

Results

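GALNT genes encode the polypeptide N-acetylgalactosaminyltransferases, the Golgi enzymes that start mucin-type O-glycosylation. The 10 genes described here, GALNT1, GALNT2, GALNT3, GALNT4, GALNT5, GALNT6, GALNT7, GALNT10, GALNT12 and GALNT14, are 10 of the 43305 genes with values on the arrays. They were taken by gene name from the probe annotation after earlier results of these arrays were known, and GALNT5 and GALNT7 stand beside the rest of the family because of their measured differences. The differences between resistant and parental cells are therefore given as a description, with no test. A further 10 family genes outside the list serve as a comparison.

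Each GALNT enzyme transfers N-acetylgalactosamine from UDP-GalNAc to a serine or threonine of a protein passing through the Golgi. Some members, such as GALNT1, GALNT2 and GALNT3, act readily on naked peptides and open the glycosylation of a protein, whereas others, such as GALNT7 and GALNT10, prefer substrates that already carry a sugar and fill in the neighbouring sites. In squamous epithelia, as elsewhere, the first sugar is then extended by other enzymes into the glycans of mucins and cell surface receptors.

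The study compared 2 human head and neck squamous cell carcinoma (HNSCC) lines, HN4 and HN30, with cisplatin-resistant derivatives, HN4/DDP and HN30/DDP (HN4_CR and HN30_CR in the labels), to seek genes tied to resistance to this DNA-damaging drug. All 4 cultures grew in DMEM with serum, the parental cells with no drug named, and the resistant cells, raised by stepwise increases of cisplatin, in medium with 20 μM cisplatin for 48 h. Each of the 4 conditions was measured on 1 one-colour Agilent array, so no spread between replicates exists, and no p-value is given. The resistant state and the presence of the drug cannot be told apart, and each resistant line is a single derivative of its parent.

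Levels are given as log2 of the processed signal relative to the 75th percentile of the same array, so that 0 means a signal equal to that percentile. A level can be set against the same probe on another array, but not against another probe. The error given as scanner SD is the error that the scanning software assigns to a spot, which leaves out the variation between cultures. The percentile lay between 444.4 and 496.1 signal units, and 55.3% to 63.6% of spots were well above background, with the highest share in HN30/DDP. No spot was saturated. The epithelial labels were checked with EPCAM, which lay between 5.95 and 6.67, and CDH1, which lay between 3.27 and 4.98. The basal keratin KRT5 stood at 2.79 in HN4 and -1.26 in HN4/DDP, against 2.84 in HN30 and 0.91 in HN30/DDP. KRT14, another basal keratin, and KRT6A, a keratin of stressed epithelium, did not follow KRT5 in HN4/DDP, where KRT14 differed by 2.33 and KRT6A by 3.32 from HN4. In HN30/DDP KRT14 differed by 0.22 from HN30, a second KRT14 probe, which differed by 3.95 in HN4/DDP and was not well above background in HN30, was at least 8.90-fold higher, and KRT6A was at 2.57 in HN30 and not well above background in HN30/DDP. TP63 differed by -0.82 in HN4/DDP and by -0.06 in its HN30 counterpart. The mesenchymal gene VIM stood at -3.35, -0.60, -2.46 and -1.51 in the same order. COL1A1, another mesenchymal marker, was higher in both resistant lines, by 1.73 in HN4/DDP and 2.43 in the HN30 pair, and PDGFRB differed by -0.01 and 0.63. A second PDGFRB probe, not well above background in HN30, was at least 8.72-fold higher in HN30/DDP. The main probes of all 3 mesenchymal markers were well above background on all 4 arrays. Of the blood and endothelial markers, the brightest PTPRC probe was well above background on all 4 arrays, between -3.10 and -2.84, 3 of its other 4 probes on none, PECAM1 on some of them, and CD68 was not analysed here. Whether these marker differences bear on the GALNT values was not tested.

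The GALNT5 reading rests on 1 probe, which is shown because the highest difference of the family was read from it. The probe lies on the plus strand at chr2:158157498-158162306 of hg19, and this span of 4809 bases for a probe of 60 bases means that it crosses at least 1 exon junction.

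GALNT5 probe: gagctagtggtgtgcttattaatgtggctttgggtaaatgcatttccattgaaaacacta

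For GALNT7, the gene with the lowest difference of the family, the RefSeq promoter is shown, 250 bases before to 50 after the start of the gene, on the plus strand at chr4:173168561-173168860 of GRCh38.p14. The capitals mark TGGCG on either strand, named in the study as a non-canonical motif of the CREB transcription factors.

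GALNT7 promoter: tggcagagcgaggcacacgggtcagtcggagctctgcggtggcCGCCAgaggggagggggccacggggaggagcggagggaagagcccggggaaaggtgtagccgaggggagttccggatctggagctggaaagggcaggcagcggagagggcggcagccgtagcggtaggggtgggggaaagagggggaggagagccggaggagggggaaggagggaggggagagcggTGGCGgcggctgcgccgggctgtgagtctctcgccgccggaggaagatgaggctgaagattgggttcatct

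TGGCG occurred at 2 places in the GALNT7 promoter, and TGACG, the canonical CREB motif, at none. Both motifs were sought on both strands. RefSeq promoters were at hand for 7 of the 10 genes, all but GALNT4, GALNT5 and GALNT6. TGGCG was present in 5 of these 7, in GALNT3, GALNT7, GALNT10, GALNT12 and GALNT14, and 41.1% of the 27305 RefSeq promoters of this length held it. TGACG was present in 0 of the 7, and in 25% of all promoters. These matches describe letters in a window of 300 bases and say nothing of binding. The GALNT7 promoter held 23 CpG sites, against a median of 14 over all promoters, and those of GALNT2 and GALNT10 held 51 each. That of GALNT1 held 9, below the median.

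All 10 genes were well above background on all 4 arrays. In HN4/DDP, GALNT5 was far higher and GALNT7 far lower than in HN4, and the other 8 genes differed much less. In HN30/DDP both genes moved in the same directions by little more than 2-fold with the main scaling. In RNA of a whole culture, fewer cells with a transcript and less of it per cell cannot be told apart.

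**Figure D1:**
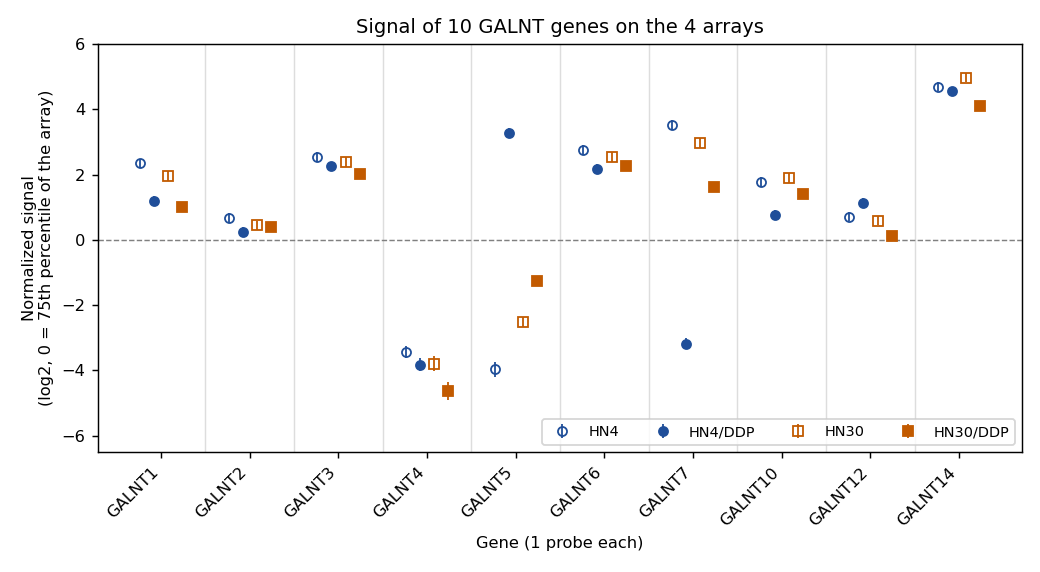
Normalized signal (log2, y axis) of the 10 GALNT genes (x axis) in HN4 (open circles), HN4/DDP (filled circles), HN30 (open squares) and HN30/DDP (filled squares), 1 array each, with the scanner SD as bars. GALNT5 rises from -3.96 to 3.28 and GALNT7 falls from 3.51 to -3.18 between HN4 and HN4/DDP. Heights of different genes come from different probes and cannot be compared.

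GALNT5 encodes a transferase of the family with a long stem region. Its level was -3.96 in HN4 and 3.28 in HN4/DDP, against -2.52 in HN30 and -1.27 in HN30/DDP. The array of HN4/DDP was the only one with a GALNT5 signal above the 75th percentile. The processed signal was 31.7 units in HN4 and 4827 in HN4/DDP, a 151.8-fold higher normalized level, with a difference of 7.25 on the log2 scale (scanner SD 0.27). In HN30/DDP the signal was 198.3 against 77.5 units in HN30, a difference of 1.25 (scanner SD 0.22), or 2.37-fold. The first difference was the 7th highest of the 26853 genes detected in the HN4 pair, and the second ranked 4484th of 28330 in the HN30 pair, above 84.2% of the genes.

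GALNT7 encodes a transferase that acts on peptides already carrying N-acetylgalactosamine. Its level was 3.51 in HN4 and -3.18 in HN4/DDP, against 2.97 in HN30 and 1.61 in HN30/DDP. The array of HN4/DDP stood apart, and HN30/DDP kept a signal above the 75th percentile. The processed signal was 5638 units in HN4 and 54.9 in HN4/DDP, a 103.2-fold lower normalized level, with a difference of -6.69 (scanner SD 0.22). In HN30/DDP the signal was 1467 against 3473 units in HN30, a difference of -1.35 (scanner SD 0.20), or 2.56-fold lower. The rank from the bottom was 8 in the HN4 pair and 2217 in the HN30 pair. The GALNT7 probe lies on the plus strand at chr4:174244878-174244937 of hg19.

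The direction of both genes in both lines was the same under each of the other processing settings tried. The size in HN4/DDP was 5.67 for GALNT5 and -5.58 for GALNT7 with another background correction (normexp). The GALNT5 difference in HN30/DDP fell below 2-fold under 4 of the settings, to 0.79 with normexp, 0.83 with median scaling, 0.94 with quantile normalization and 0.92 in the deposited table, so its place above 2-fold in that line depends on the processing.

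**Figure D2:**
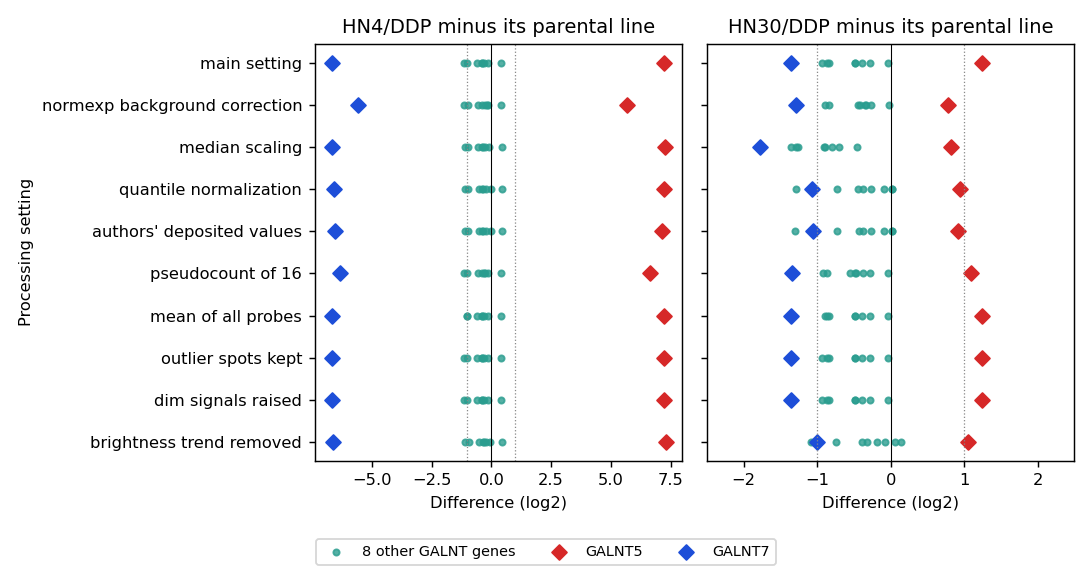
Differences of GALNT5 (red), GALNT7 (blue) and the other 8 GALNT genes (green) from the parental line (log2, x axis) in HN4/DDP (left) and HN30/DDP (right), under the main setting and 9 alternatives (y axis), with dotted lines at 2-fold. The 2 panels have different x axes. In HN4/DDP GALNT5 stays between 5.67 and 7.30, and in HN30/DDP between 0.79 and 1.25, where 4 alternatives place it below 2-fold.

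A gene was counted as higher or lower when its difference was over 1 on the log2 scale (2-fold) and its probe was well above background on the array where it was brighter. In HN4/DDP, 1 of the 10 genes was higher (GALNT5), against 9.31% of all detected genes, and 3 were lower (GALNT1, GALNT7 and GALNT10), against 8.65%. The count of 3 became 2 under 6 other settings, each of which put GALNT10 just short of 2-fold, at -0.95 with the brightness trend removed. Past 2 on the log2 scale there was 1 in each direction, GALNT5 and GALNT7, with a background of 3.61% higher and 2.2% lower. In HN30/DDP, 1 gene was higher (GALNT5), against 19.8%, and 1 was lower (GALNT7), against 13.3%. None of the 10 passed 2 on the log2 scale there, where 8.37% of all genes were higher and 2.75% lower. The background for HN30/DDP turned with the scaling, to 13.6% higher and 23.9% lower with median scaling, and to 8.23% and 9.42% with normexp. Because the genes were chosen with these differences known, the counts are printed beside the background and nothing is read from them.

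Among the enzymes that open glycosylation, GALNT1, a broadly expressed member, had lower values in both resistant lines. Its level was 2.34 in HN4 and 1.19 in HN4/DDP, against 1.95 in HN30 and 1.02 in HN30/DDP, and both parental levels lay above both resistant levels. The differences were -1.15 (scanner SD 0.20) and -0.93 (scanner SD 0.20), the second just short of 2-fold. A separate GALNT1 probe gave -0.85 in both lines, so the place of GALNT1 past 2-fold in HN4/DDP depends on the probe.

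GALNT2, the other broadly expressed initiating enzyme, stood at 0.67, 0.26, 0.44 and 0.41 in the order HN4, then HN4/DDP, then HN30, then HN30/DDP, kept in the next sentences. GALNT3, which glycosylates the phosphate hormone FGF23, stood at 2.54, 2.25, 2.39 and 2.01. GALNT6, a close relative of GALNT3, stood at 2.75, 2.17, 2.54 and 2.26. Differences of these 3 genes ranged from -0.58 for GALNT6 in HN4/DDP to -0.03 for GALNT2 in HN30/DDP, all short of 2-fold. The sign for GALNT2 and GALNT6 in HN30/DDP was above 0 with quantile normalization (0.02 for both), in the deposited table (0.02 for both) and with the trend with brightness removed (0.14 and 0.06).

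GALNT14, a family member known for glycosylating death receptors of the TRAIL pathway, stood at 4.69 in HN4 and 4.55 in HN4/DDP, against 4.97 in HN30 and 4.10 in HN30/DDP. The lowest value was that of HN30/DDP, with a difference of -0.87 (scanner SD 0.20), against -0.14 in HN4/DDP. Genes of like mean signal had a median difference of -0.54 in the HN30 pair, and relative to them GALNT14 was at -0.33.

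Among the enzymes that prefer glycosylated substrates, GALNT10 stood at 1.77 in HN4 and 0.76 in HN4/DDP, against 1.89 in HN30 and 1.40 in HN30/DDP. The difference of -1.01 (scanner SD 0.20) in HN4/DDP lay at the 2-fold line, and that in HN30/DDP was -0.49. GALNT12, a transferase studied in the colon, stood at 0.71, 1.13, 0.59 and 0.11, and its differences were 0.42 in HN4/DDP and -0.48 in HN30/DDP, each short of 2-fold. GALNT4, which adds to sites left by other members, had a dim probe, at -3.44, -3.83, -3.79 and -4.63. Its differences were -0.38 (scanner SD 0.27) and -0.84 (scanner SD 0.35). The second passed 2-fold with median scaling (-1.26), quantile normalization (-1.29), in the deposited table (-1.30) and with the trend with brightness removed (-1.08), and was -0.33 with normexp. Its transcript cannot be told apart from the POC1B-GALNT4 read-through transcripts annotated to the same probe.

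Without GALNT5 and GALNT7, 7 of the 8 genes lay below 0 in HN4/DDP, all but GALNT12, with a median of -0.40 and a range of -1.15 to 0.42. All detected genes had a median of -0.08, and 55.9% of them lay below 0. In HN30/DDP, 8 of 8 lay below 0 with the main scaling, with a median of -0.48 and a range of -0.93 to -0.03, against a median of 0.06 and 47.1% below 0 for all genes. The median became -0.25 with the trend with brightness removed and -0.90 with median scaling. The exceptions under other settings were GALNT2 and GALNT6, as given above. The median size of the difference over the 8 genes was 0.41 in HN4/DDP, where it was 0.40 over all genes, and 0.48 in HN30/DDP, where it was 0.64.

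The levels were next set between the lines, which compares 1 array with 1 other in each case. Between the parental lines, GALNT5 was higher in HN30 by 1.44 (scanner SD 0.28), or 2.72-fold, the only 1 of the 10 genes past 2-fold, where 3.32% of all genes were higher and 7.08% lower. GALNT7 differed by -0.55 and the other 8 genes by -0.39 to 0.28. Between the resistant lines the order of GALNT5 was the opposite, with HN30/DDP lower than HN4/DDP by 23.5-fold. GALNT7 was 27.7-fold higher in HN30/DDP than in HN4/DDP. GALNT12 was also lower in HN30/DDP, with a difference of -1.02. These made 1 gene higher and 2 lower, where 16.4% of all genes were higher and 10.4% lower. The remaining 7 genes were all short of 2-fold, with -0.80 for GALNT4 and 0.64 for GALNT10 at the ends.

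For the 10 family genes outside the list, 4 were well above background on all arrays (GALNT9, GALNT11, GALNT18 and GALNT17, named WBSCR17 in the annotation), 1 on some (GALNT16) and 5 on none (GALNT8, GALNT13, GALNT15, GALNTL5 and GALNTL6). GALNT18 stood at -0.40 in HN4 and 2.49 in HN4/DDP, against 1.79 in HN30 and 0.89 in HN30/DDP. It was higher in HN4/DDP by 2.89 (scanner SD 0.20), and in HN30/DDP its difference was -0.90, short of 2-fold, or -1.32 with median scaling. GALNT16 was not well above background in HN4 and stood at -3.96 in HN4/DDP, at least 1.75-fold higher. It counts as past 2-fold by its measured difference of 3.13 (scanner SD 1.47), which fell to 0.45 with normexp. GALNT9 was higher in HN30/DDP by 1.48 (scanner SD 0.27), from -3.80 to -2.31, though another of its probes was well above background in HN30 and not in HN30/DDP, at least 2.45-fold lower, and a further probe was well above background only in HN30/DDP. The GALNT9 difference fell below 2-fold with normexp (0.59) and with the mean of all its probes (0.36). GALNT11 and GALNT17 differed by 0.07 to 0.16 in both lines. By measured differences, 2 of 5 detected genes were past 2-fold higher in HN4/DDP, GALNT16 with a bound short of 2-fold and detected there only in HN4/DDP. In HN30/DDP 1 of 4 was higher, and 0 were lower in either line with the main scaling. For all detected genes the shares were 9.31% higher and 8.65% lower in HN4/DDP, and 19.8% and 13.3% in HN30/DDP.

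The enzymes around the GALNT step were described with a list of 26 genes. They comprise the supply of UDP-GalNAc, the formation of the core glycans, their extension and their capping by sialic acid. In HN4/DDP, 3 of 24 detected genes were higher and 2 lower, with a median of 0.09. In HN30/DDP, 3 of 23 were higher and 3 lower, with a median of 0.02. The shares for all detected genes are those given with the GALNT counts. Other settings gave 2 to 4 higher there and 1 to 6 lower at the same threshold, with 6 lower under median scaling and 1 with the brightness trend removed. Of all detected genes, 23.9% were lower in HN30/DDP under median scaling and 11.5% with the brightness trend removed.

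C1GALT1, the enzyme that builds the core 1 glycan on the sugar added by GALNTs, stood at 1.90 in HN4 and 0.97 in HN4/DDP, against 2.24 in HN30 and 0.94 in HN30/DDP. C1GALT1C1, the chaperone that this enzyme requires, stood at 3.40, 2.43, 3.45 and 2.03. For both genes, both parental levels lay above both resistant levels. C1GALT1 differed by -0.94 and -1.30, and C1GALT1C1 by -0.98 and -1.42, HN4/DDP first (scanner SD 0.20 each). Only the HN30/DDP differences passed 2-fold, and that of C1GALT1 was -0.99 with the trend with brightness removed. The second C1GALT1 probe gave -0.96 and -1.21. GCNT1, which branches core 1 into core 2, stood at -4.18, -1.92, -4.20 and -4.64, and was higher in HN4/DDP by 2.25 (scanner SD 0.28), or by 1.08 with normexp.

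In the supply of UDP-GalNAc, GFPT1 and GFPT2 encode the entry enzymes of the hexosamine pathway. GFPT1 stood at 2.90, 4.12, 2.75 and 2.77 and was higher in HN4/DDP by 1.22, where a second probe gave 0.81. In HN30/DDP the main GFPT1 probe gave 0.02 and the second 0.96. GFPT2 stood at 1.14, 0.02, 1.04 and 2.59, with differences of -1.13 in HN4/DDP, counted as lower, and 1.56 in HN30/DDP, counted as higher. UAP1, which forms UDP-linked amino sugars, stood at 1.75, 2.53, 2.67 and 1.42 and was lower in HN30/DDP, with a difference of -1.25. It was just short of 2-fold with quantile normalization (-0.99), in the deposited table (-0.99) and with the brightness trend removed (-0.94).

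Of the sialyltransferases that cap O-glycans, ST6GALNAC2 stood at 2.37, 2.12, 2.02 and 4.78 and was higher in HN30/DDP by 2.75 (scanner SD 0.20). ST6GALNAC5 stood at -2.53, -0.96, -1.87 and -1.85 and was higher in HN4/DDP by 1.57. ST6GALNAC3 stood at -1.24 in HN4 and -3.57 in HN4/DDP, with a value of -3.41 in HN30/DDP and a signal not well above background in HN30. It was lower in HN4/DDP, with a difference of -2.33, and at least 2.33-fold higher in HN30/DDP. A second ST6GALNAC3 probe gave -1.49 in HN4/DDP. That probe was not well above background in HN30, and its measured difference in HN30/DDP was 0.16. With normexp the differences of ST6GALNAC3 were -1.34 and 0.40, and with the mean of its probes that in HN30/DDP was 0.96. Its place past 2-fold in HN30/DDP thus depends on the processing and the probe.

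**Figure D3:**
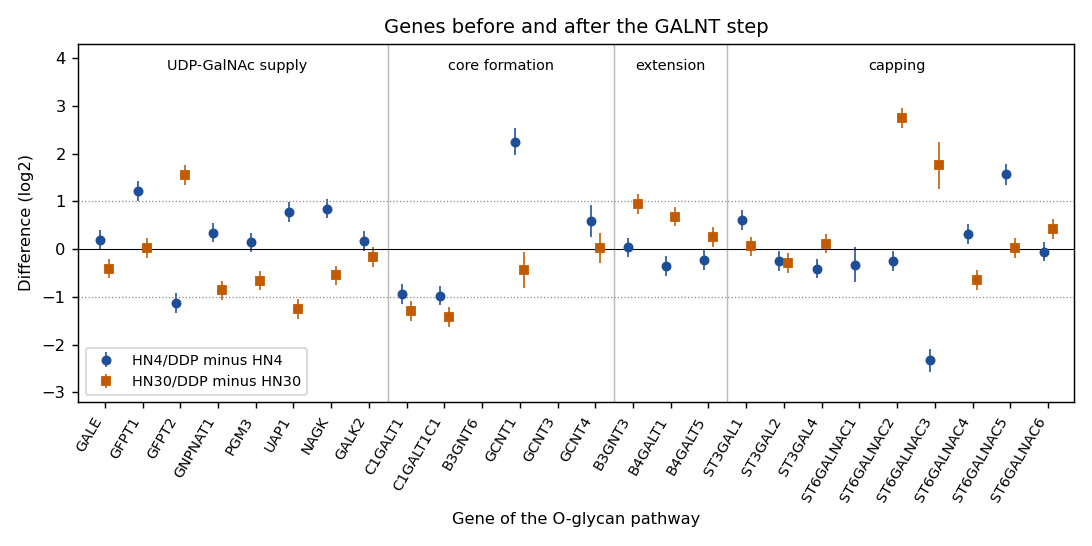
Difference from the parental line (log2, y axis) in HN4/DDP (circles) and HN30/DDP (squares) for the 26 genes of the O-glycan pathway (x axis), grouped by step, with scanner SDs as bars and dotted lines at 2-fold. Genes not well above background in a pair have no point. C1GALT1 and C1GALT1C1 lie at -0.94 to -1.42 in both lines, whereas GFPT2 and ST6GALNAC3 lie on opposite sides of 0.

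The genes whose 4 values lay closest to those of GALNT5, after centring each gene on its mean, were ANGPTL4, GRHL3 and BATF2, at Euclidean distances of 0.745, 1.25 and 1.27 among 22148 genes. ANGPTL4, an inhibitor of lipoprotein lipase, differed by 6.97 in HN4/DDP and 0.75 in HN30/DDP. GRHL3, a grainyhead transcription factor of epithelia, differed by 5.49 and 1.40, and BATF2, a bZIP transcription factor, by 5.52 and 1.65. The closest to GALNT7 were COL12A1, FBN2 and SEMA3C, at distances of 1.02, 1.08 and 1.11. COL12A1, a collagen of the fibril surface, differed by -6.86 and -2.14. FBN2, a fibrillin, differed by -5.19 and -1.07, and SEMA3C, a secreted semaphorin, by -5.45 and -1.19. Likeness over 4 arrays is a description only.

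The protein-coding genes next to GALNT5 and GALNT7 in the RefSeq order were also read, 2 on each side. Next to GALNT5, GPD2, the mitochondrial glycerol-3-phosphate dehydrogenase, differed by -1.23 in HN4/DDP and -1.86 in HN30/DDP, opposite in direction to GALNT5. NR4A2, an orphan nuclear receptor, differed by 0.18 and 1.03, and ERMN and CYTIP were dim on at least 2 arrays. Next to GALNT7, HMGB2, a chromatin protein, differed by -1.38 and -1.94. SAP30, a subunit of the SIN3 deacetylase complex, differed by -1.51 and -2.07. AADAT, an aminotransferase, differed by -0.20 and -1.61, and GALNTL6 was not well above background on any array. In HN30/DDP the GALNT7 difference of -1.35 was thus smaller in size than those of HMGB2, SAP30 and AADAT, and in HN4/DDP that of -6.69 was larger than all 3.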

How the data were processed

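RNA of 4 cultures was hybridised to 1 Agilent array each, with Cy3 as the single dye. Per the labels, the authors scanned and extracted the arrays with Agilent Feature Extraction 10.7.1.1. The deposited scanner files hold intensity per spot, of which the processed signal, corrected for background, was used. The deposited value table holds log2 values with the same distribution on each array (median 4.65) and was used as an alternative. The sources used here do not state how it was normalized, but its sorted values were identical on all arrays, as quantile normalization makes them. The deposited table and the quantile setting are therefore not independent alternatives.

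Control and outlier spots were dropped, repeat spots of 1 probe were averaged, and log2 values were centred on the 75th percentile of each array. The probe with the highest mean stood for a gene, and detection used the scanner's own call of well above background. For a gene not detected on 1 array, the dim level was set to the lowest detected signal there, giving the "at least" folds. Values were computed in Python 3.11.15 (numpy 2.4.6, pandas 2.3.3), with limma 3.58.1 under R 4.3.3 for normexp with an offset of 50. The counting was tested on simulated data with differences far past 2-fold in bright spots and all spots taken as detected. That test did not cover dim probes or differences near 2-fold.

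With 1 array per condition, no model was fitted. The GALNT genes and the lists were chosen with earlier results of these data known. Named were all 10 genes, the other family genes, pathway genes past 2-fold, the 3 closest patterns to GALNT5 and GALNT7, and their neighbours, the last chosen later. Probe coordinates are in hg19 as deposited. RefSeq (GRCh38.p14) gave promoters, gene order and symbols, with 45 of 46 named genes matched by accession. The 11 alternatives covered background, scaling, source table, pseudocount, probe choice, outliers, dim signals, brightness trend, threshold and detection.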

Additional observations from a re-analysis of the deposited data

Results flagged for a closer look

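The sugar supply gene GFPT2 and the sialyltransferase gene ST6GALNAC3 lay past 2-fold in opposite directions in the resistant lines. GFPT2 differed by -1.13 in HN4/DDP, against 1.56 in HN30/DDP. ST6GALNAC3 differed by -2.33 in HN4/DDP. In HN30/DDP it was at least 2.33-fold higher, since its signal in HN30 was not well above background, with a measured difference of 1.76. The measured difference was 0.40 with normexp and 0.96 with the mean of both probes, so the opposite call of ST6GALNAC3 is lost under these settings. The second probe alone, also not well above background in HN30, gave a measured difference of 0.16 in HN30/DDP. Whether the lines differ was not tested, as each value rests on 1 array per condition.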

How the results depend on the processing

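GALNT5 stayed higher and GALNT7 lower than in the parental line under each alternative run, at 5.67 to 7.30 and -6.69 to -5.58 in HN4/DDP and at 0.79 to 1.25 and -1.77 to -1.01 in HN30/DDP. With normexp, GALNT5 and GALNT7 were at 5.67 and -5.58 in HN4/DDP, and GALNT5 was at 0.79 in HN30/DDP. There 0 of the 10 genes were higher, against 8.23% of all genes. Median scaling moved the median of all genes in HN30/DDP from 0.06 to -0.36. With it, 0 of the 10 genes were higher there, against 13.6% of all genes. There were 4 lower (GALNT1, GALNT4, GALNT7 and GALNT14), against 23.9%. The median of the 10 genes was -0.90, with GALNT5 at 0.83 and GALNT7 at -1.77. With quantile normalization, 0 were higher and 2 lower in HN30/DDP, GALNT4 and GALNT7 (GALNT5 0.94, GALNT7 -1.06), against 17.7% and 13.5% of all genes, and the deposited table gave 0 and 2 (0.92 and -1.06), against 17.8% and 13.4%. With a pseudocount of 16, GALNT5 and GALNT7 were at 6.66 and -6.32 in HN4/DDP. With the brightness trend removed, 2 genes were lower in HN30/DDP, against 11.5% of all genes, and GALNT7 was at -1.01. Past 2 on the log2 scale, 1 gene was lower in HN4/DDP, against 2.2% of all genes. In HN30/DDP 0 were higher, against 8.37%, and 0 lower, against 2.75%. The cause of these shifts was not tested. Within the limits used were 33 of 44 counts and 17 of 18 medians of the 10 genes and 24 of 36 differences of GALNT5 and GALNT7. These 2 genes rest on 1 spot each, well above background on all arrays. The settings for probe choice, outliers and dim signals thus could not move their differences, and those unmoved values are among the 24. Of the differences of the other named genes 76 of 351 moved beyond the scanner SD, with 6 of 44 pathway counts and 11 of 44 background shares beyond 1.5 times. Among genes past 2-fold, the call was lost under at least 1 setting with the same threshold for GALNT5 in HN30/DDP, GALNT10, GALNT16, GALNT9, UAP1, C1GALT1 in HN30/DDP and ST6GALNAC3 in HN30/DDP. The arrays pair by line, and the differences given are within those pairs. A joint fit with the line as a block, which has 1 residual degree of freedom, was not run because the genes were chosen by these differences. With replicate number as the block, no paired analysis was possible because number 1 is the only one the labels give.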
